A study of Homo sapiens with 6 samples.

Results

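The genes described here build cholesterol and fatty acids. They are 34 genes chosen by name, in 4 groups fixed by function: 7 enzymes of the mevalonate pathway, 11 enzymes that turn its product into cholesterol, 6 regulators around the SREBP transcription factors, and 10 enzymes of fatty acid and glycerolipid synthesis. All 34 were among the 34486 genes of the tables, and all 34 passed the filter on low counts that left 13047 genes for testing. They were measured by total RNA sequencing in MCF10A, an immortalised but non-tumorigenic breast epithelial line with the genotype given as wild type. PDCD4, a tumour suppressor that binds RNA and blocks the helicase eIF4A, had been silenced with a pool of siRNAs in 3 libraries (siPDCD4). The 3 libraries set against them came from cells given a control siRNA (siCT). Both siRNAs were used at 10 nM for 48 h, and both groups grew in the same medium with horse serum, epidermal growth factor, insulin, hydrocortisone and cholera toxin. Separate cultures are not stated for the 3 libraries of a group, so the spread behind each p-value may be technical only.

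In the mevalonate pathway, acetyl-CoA units are condensed into HMG-CoA and then into isoprenoid phosphates, of which farnesyl diphosphate is the branch point toward sterols, coenzyme Q, dolichol and protein prenylation. The sterol enzymes close the squalene chain into lanosterol and trim it to cholesterol. SREBP-2, encoded by SREBF2, mainly drives the sterol genes, and SREBP-1, encoded by SREBF1, mainly drives the fatty acid genes. Both are held in the endoplasmic reticulum with SCAP and the INSIG proteins while sterols are abundant, and are cut and released when sterols are scarce. An SREBP target gene often carries a sterol response element beside a CCAAT box, bound by NF-Y, or a GC box, bound by SP1, in its promoter.

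The promoters of 4 members on which the results turn are shown because they carry these letters at different densities. They are the 170 bases before the first base of a main transcript (SREBF2-201, INSIG1-201, FDPS-203 and LPIN1-201), on the plus strand, from RefSeq on GRCh38.p14. They lie at chr22:41832935-41833104 for SREBF2, chr7:155297708-155297877 for INSIG1, chr1:155308624-155308793 for FDPS and chr2:11746418-11746587 for LPIN1. Capitals mark every match, on either strand, to a sterol response element (TCACNCCAC), a CCAAT box (CCAAT), a GC box (GGGCGG) or an E-box (CACGTG).
SREBF2: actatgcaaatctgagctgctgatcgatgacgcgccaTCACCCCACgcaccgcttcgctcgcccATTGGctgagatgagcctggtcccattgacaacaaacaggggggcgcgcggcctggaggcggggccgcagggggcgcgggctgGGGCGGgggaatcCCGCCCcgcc
INSIG1: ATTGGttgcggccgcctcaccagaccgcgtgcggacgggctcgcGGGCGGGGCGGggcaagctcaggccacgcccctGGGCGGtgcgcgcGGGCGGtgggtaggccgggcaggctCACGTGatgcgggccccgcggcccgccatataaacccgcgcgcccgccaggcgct
FDPS: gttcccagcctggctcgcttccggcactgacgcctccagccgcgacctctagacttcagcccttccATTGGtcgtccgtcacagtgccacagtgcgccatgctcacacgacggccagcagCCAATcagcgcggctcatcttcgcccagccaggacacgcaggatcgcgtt
LPIN1: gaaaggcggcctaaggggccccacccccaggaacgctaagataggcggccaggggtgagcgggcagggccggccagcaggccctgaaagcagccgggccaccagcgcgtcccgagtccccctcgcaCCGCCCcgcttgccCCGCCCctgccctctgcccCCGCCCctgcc
SREBF2 had 4 matches, among them the sterol response element. INSIG1 had 6, of which the first pair of GC boxes shares a base. FDPS had 2, both CCAAT boxes, and LPIN1 had 3, all GC boxes.

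Over windows of 300 bases, 250 before and 50 after each start, 30 of the 34 members had an entry in the RefSeq promoter table, with 43 promoters in all. A CCAAT box was found in 25 of these 43 promoters (58.1%), against 34.6% of all 35116 promoters. By gene it was found in 13 of 15 mevalonate and sterol enzymes, 3 of 6 regulators and 5 of 9 fatty acid enzymes. A GC box was found in 38 of the 43 (88.4%), against 45% of all promoters. The sterol response element in the spelling searched was found in SREBF2 alone among the members, against 1.13% of all promoters. The E-box was found in 5 of the 43 (11.6%), in INSIG1, LSS, SC5D and SCAP, against 7.26% of all promoters. The 35116 promoters were not restricted to genes that passed the filter on low counts, as all members did, so these shares are not matched for expression. A match is a description of the letters and was not tested as a binding site.

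Across the series, totals of estimated counts lay between 15547679 and 18619778 in siPDCD4 libraries and between 13410441 and 21828931 in siCT libraries. PDCD4 itself stood at 9.13, 7.45 and 8.66 CPM (counts scaled to a common depth, with a correction for the length of the transcripts) in siPDCD4 replicates 1, 2 and 3, against 89.5, 88.7 and 61.9 CPM in siCT replicates 1, 2 and 3, which is a log2 fold change of -3.24 ± 0.17 (SE, adjusted p = 4.05e-05 in edgeR). At a false discovery rate (FDR) of 5%, 56 genes passed in edgeR, which is 0.429% of the genes tested, and 34 of them (0.261%) were lower in siPDCD4. The library of siCT replicate 3 stood apart on the first principal component, at 30.9 against -16.1 to 8.85 for the other libraries, and it had the lowest total and the lowest share of counts in protein-coding genes (76.2%, against 78.7% to 86.4%). All 10 mammary epithelial markers passed the filter, with KRT5 at 1052 TPM in siPDCD4 and 1093 TPM in siCT (means of 3 libraries). Of these 10, none passed the FDR in edgeR, but some differed as much as the lipid genes. On the log2 scale TP63 stood at 0.36 ± 0.09 (adjusted p = 0.161) and KRT6A at -0.29 ± 0.09 (adjusted p = 0.305), both with groups that did not overlap, and EPCAM at 0.47 ± 0.16 (adjusted p = 0.367). TP63 passed in 2 of 11 other fits of all 6 libraries. The liver markers ALB, APOA1 and TTR had no counts in any library, and the 5 adipocyte markers, ADIPOQ, PLIN1, LEP, FABP4 and CIDEC, had at most 8.7 counts in a library and did not pass the filter. Of the blood and endothelial markers, PTPRC, CD3E and VWF did not pass the filter. PECAM1 did, at 1.18, 2.02 and 4.31 CPM in siPDCD4 replicates 1, 2 and 3, against 1.01, 0.984 and 1.02 CPM in siCT replicates 1, 2 and 3 (log2 fold change 1.29 ± 0.46, adjusted p = 0.41). The part of these marker differences in the results on lipid genes was not tested.

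Levels between genes were compared per length, in TPM (counts divided by transcript length and scaled to the library, summed over the transcripts of a gene). The farnesyl diphosphate synthase FDPS was the most abundant member, at 347 TPM in siPDCD4 and 425 TPM in siCT. Next came EBP, the sterol isomerase, at 104 and 113 TPM, and SQLE, the squalene epoxidase, at 95.7 and 107 TPM in siPDCD4 and siCT. The most abundant fatty acid genes were ACLY, which makes cytosolic acetyl-CoA from citrate, at 96.1 TPM in siPDCD4 and 97.6 TPM in siCT, and FASN, the fatty acid synthase, at 91.9 and 86.8 TPM. EBP, SQLE, ACLY and FASN had library values that overlapped each other and are not ordered beyond that spread. The scarcest members were INSIG2, at 2.13 TPM in siPDCD4 and 2.62 TPM in siCT, and the sterol reductase TM7SF2, at 3.23 and 2.53 TPM.

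**Figure D1:**
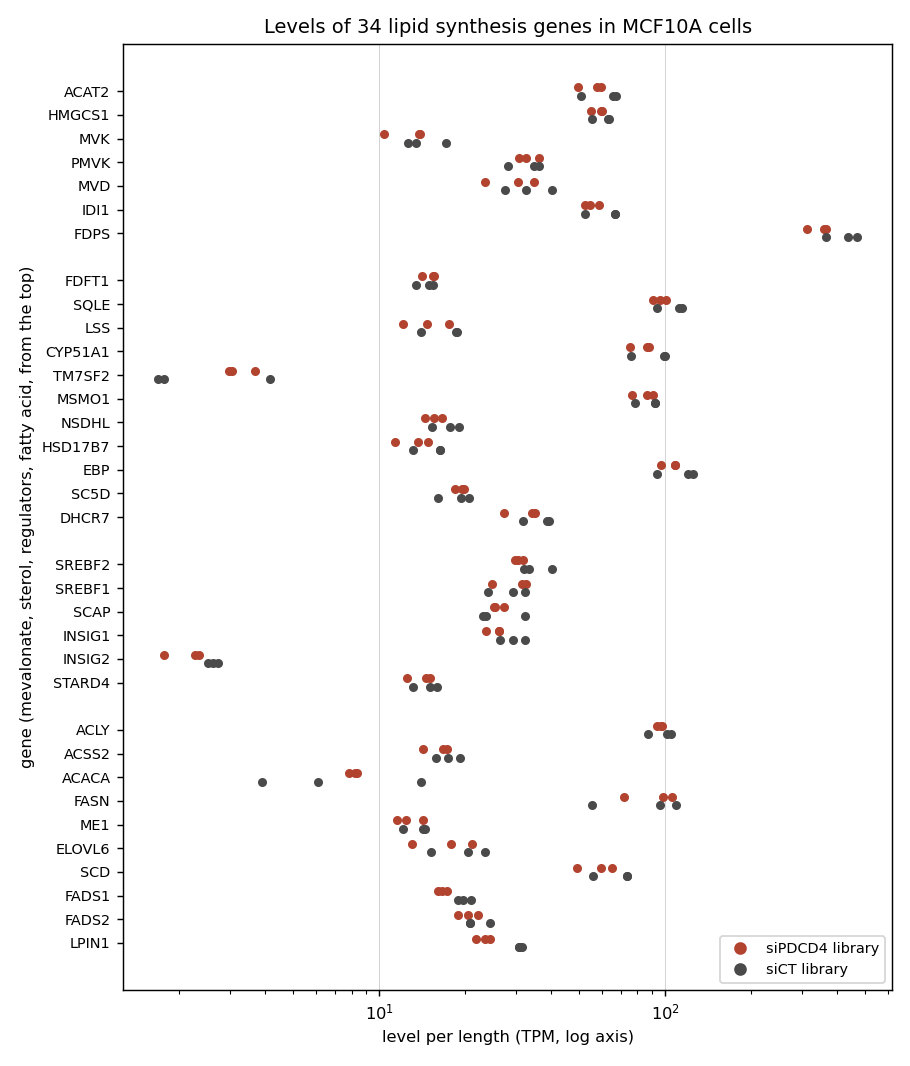
Level of each of the 34 genes in each library, in TPM on a log axis, with the 3 siPDCD4 libraries (red) drawn above the 3 siCT libraries (grey), and the genes grouped from the top as mevalonate enzymes, sterol enzymes, regulators and fatty acid enzymes. FDPS stood above all other members, while INSIG2 and TM7SF2 stood lowest.

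The comparison asked whether silencing of PDCD4 moved lipid synthesis genes, with the sterol and the fatty acid arm taken apart. The differences were small and mostly toward lower levels in siPDCD4. In all, 28 of 34 members had a log2 fold change below 0, against 50.6% of all genes tested, and the median member was 10.3% lower (median log2 fold change -0.157, against -0.002 over all genes). No member passed an FDR of 5% in edgeR (0 of 34). At an unadjusted p under 0.05 there were 5 members, LPIN1, FDPS, FADS1, INSIG1 and SREBF2, and all 5 were lower, against 4.48% of all genes that were lower at that p. The siPDCD4 libraries lay wholly below the siCT libraries for 6 members, those 5 and INSIG2, against 7.13% of all genes, and no member lay wholly above. The levels compared for this carry the correction for transcript length, and the names depend on it. Without that correction, the unadjusted p in edgeR was 0.158 for SREBF2 and 0.0492 for SQLE. With DESeq2, which called 191 genes (1.46%), 1 member passed, LPIN1. The median SE of a member's log2 fold change was 0.109. The members are not independent replicates of the silencing, so the 28 of 34 carries no test. The median log2 level of an arm itself varied between libraries of a group. Its pooled SD was 0.131 for mevalonate enzymes, 0.101 for sterol enzymes, 0.088 for regulators and 0.083 for fatty acid genes. These are bulk libraries, in which less of an RNA per cell cannot be told apart from fewer cells that carry it.

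**Figure D2:**
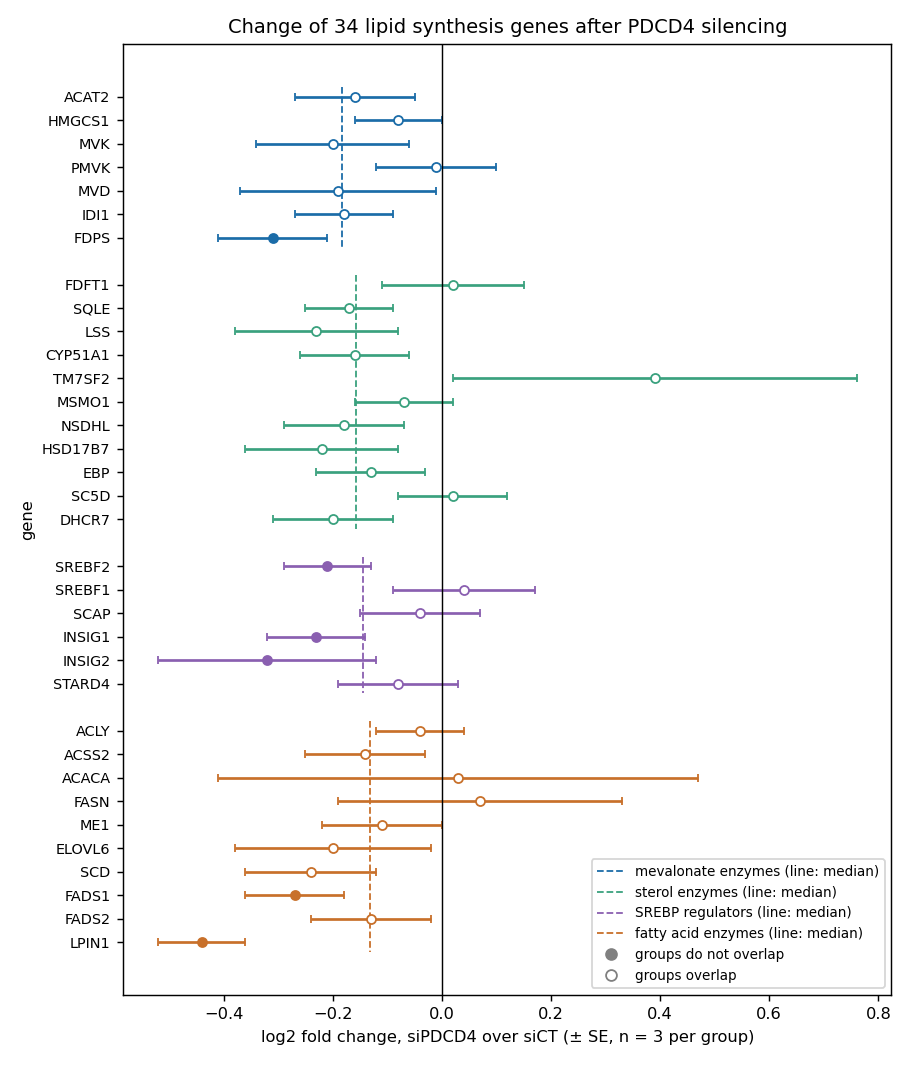
Log2 fold change of siPDCD4 over siCT for each of the 34 genes, with its SE, grouped by arm, with the median of each arm as a dashed line and filled points where the 3 siPDCD4 libraries do not overlap the 3 siCT libraries. Of the points, 28 lie left of 0, and LPIN1 lies furthest from 0 relative to its SE.

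All 7 mevalonate enzymes were below 0, PMVK by so little that it crossed 0 in some other fits, and their median log2 fold change was -0.183 (11.9% lower). FDPS, on chromosome 1 from 155308748 to 155320666, had the smallest p of this arm. It had 307, 304 and 268 CPM in siPDCD4 replicates 1, 2 and 3, against 407, 357 and 326 CPM in siCT replicates 1, 2 and 3. The groups did not overlap, and the log2 fold change was -0.31 ± 0.10 (adjusted p = 0.317). IDI1, the isomerase that makes a substrate of FDPS, had 125, 136 and 122 CPM in siPDCD4, against 158, 148 and 128 CPM in siCT. Its groups overlapped at siCT replicate 3 (log2 fold change -0.18 ± 0.09, adjusted p = 0.665). HMGCS1, the HMG-CoA synthase and a widely used readout of SREBP-2, averaged 150 ± 5.49 CPM in siPDCD4 and 158 ± 8.11 CPM in siCT (SD, n = 3 each), a difference within the spread of the libraries. ACAT2, the cytosolic thiolase, and MVK, the mevalonate kinase, had log2 fold changes of -0.16 ± 0.11 and -0.20 ± 0.14, and MVD and PMVK, the next enzymes of the chain, had -0.19 ± 0.18 and -0.01 ± 0.11. Processed copies of FDPS elsewhere in the genome held at most 0.123% of the counts of FDPS in any library.

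Of the 11 sterol enzymes, 8 were below 0, with a median of -0.158 (10.4% lower), and none had groups that did not overlap. SQLE had 248, 239 and 229 CPM in siPDCD4 replicates 1, 2 and 3, against 285, 275 and 246 CPM in siCT. Only siCT replicate 3 reached down into the range of siPDCD4, and the log2 fold change was -0.17 ± 0.08 (adjusted p = 0.583). DHCR7, which carries out the last reduction to cholesterol, had 87.9, 86.6 and 70.5 CPM in siPDCD4, against 102, 94.8 and 85.0 CPM in siCT. Again siCT replicate 3 lay among the siPDCD4 libraries (log2 fold change -0.20 ± 0.11, adjusted p = 0.686). HSD17B7, a 3-ketosteroid reductase, NSDHL, a C4 dehydrogenase, and EBP had log2 fold changes of -0.22 ± 0.14, -0.18 ± 0.11 and -0.13 ± 0.10. LSS, CYP51A1 and MSMO1 stood at -0.23 ± 0.15, -0.16 ± 0.10 and -0.07 ± 0.09. The 3 enzymes above 0 were FDFT1 and SC5D, both at 0.02 with SEs of 0.13 and 0.10, and TM7SF2. TM7SF2 had 4.37, 3.66 and 3.63 CPM in siPDCD4, against 2.08, 2.05 and 5.25 CPM in siCT, so that its high value (0.39 ± 0.37) lay within the spread of the control libraries.

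Among the regulators, 5 of 6 were below 0, with a median of -0.145 (9.57% lower). SREBF2, on chromosome 22 from 41833105 to 41907306, had 109, 105 and 104 CPM in siPDCD4 replicates 1, 2 and 3, against 118, 134 and 116 CPM in siCT. The groups did not overlap, and the log2 fold change was -0.21 ± 0.08 (adjusted p = 0.475). SREBF1 had 43.8, 45.4 and 35.2 CPM in siPDCD4, against 42.1, 43.8 and 35.4 CPM in siCT. Here the groups lay over each other, and the log2 fold change was 0.04 ± 0.13 and changed sign with a correction for GC content and with some libraries left out. The difference between the paralogues was not tested.

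INSIG1, the retention protein of SCAP and itself an SREBP target, had 67.6, 68.7 and 62.7 CPM in siPDCD4, against 78.6, 81.6 and 72.6 CPM in siCT. The groups did not overlap (log2 fold change -0.23 ± 0.09, adjusted p = 0.45). INSIG2, its paralogue, which is not driven by SREBP in the same way, had 5.30, 5.17 and 4.08 CPM in siPDCD4, against 5.85, 6.03 and 6.27 CPM in siCT. These groups did not overlap either, but INSIG2 rested on 73 to 118 counts per library and its SE was wide (-0.32 ± 0.20, adjusted p = 0.744). SCAP, the sterol-sensing escort of the SREBPs, and STARD4, a sterol carrier, had log2 fold changes of -0.04 ± 0.11 and -0.08 ± 0.11. Without the correction for transcript length, the log2 fold changes of SREBF2 and INSIG2 were -0.11 and -0.15.

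Of the 10 fatty acid genes, 8 were below 0, with a median of -0.131 (8.7% lower). LPIN1 was the member nearest the threshold. It lies on chromosome 2 from 11677595 to 11827409 and encodes lipin 1, which makes diacylglycerol from phosphatidate and, in mouse liver, acts as a coactivator of fatty acid oxidation genes, so that it does not make fatty acids itself. LPIN1 had 74.1, 69.5 and 78.8 CPM in siPDCD4 replicates 1, 2 and 3, against 101, 97.3 and 104 CPM in siCT replicates 1, 2 and 3. The groups stood well apart, at 74.2 ± 4.66 CPM in siPDCD4 and 101 ± 3.36 CPM in siCT (SD, n = 3 each), or 26.3% lower. The log2 fold change was -0.44 ± 0.08, with an adjusted p of 0.0586 in edgeR. LPIN1 passed in 6 of 11 other ways of fitting all 6 libraries, DESeq2 among them (adjusted p = 0.00109), and in 0 of 6 fits that left out 1 library. Without the length correction its log2 fold change was -0.67 (adjusted p = 0.00111). The mean effective length of its transcripts was 2646, 2840 and 2519 bases in siPDCD4 and 3212, 3195 and 2940 bases in siCT. These lengths were shorter in every siPDCD4 library, and they come from the division of reads among transcripts by Salmon.

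FADS1, the delta-5 desaturase of polyunsaturated fatty acids, had 63.2, 66.0 and 69.7 CPM in siPDCD4, against 76.8, 75.6 and 88.0 CPM in siCT. The groups did not overlap (log2 fold change -0.27 ± 0.09, adjusted p = 0.367). Its neighbour FADS2, the delta-6 desaturase, had a log2 fold change of -0.13 ± 0.11. SCD, the desaturase that makes oleate, had 330, 363 and 279 CPM in siPDCD4, against 421, 397 and 330 CPM in siCT. Its groups overlapped (log2 fold change -0.24 ± 0.12, adjusted p = 0.625). ACSS2, which makes acetyl-CoA from acetate, averaged 36.0 ± 3.60 CPM in siPDCD4 and 39.5 ± 2.13 CPM in siCT, and ACLY averaged 409 ± 5.69 CPM in siPDCD4 and 421 ± 27.3 CPM in siCT. Both differences lay within the spread of the libraries.

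The core enzymes of palmitate synthesis varied more between control libraries than between groups. FASN had 382, 415 and 285 CPM in siPDCD4, against 223, 415 and 396 CPM in siCT. ACACA, the acetyl-CoA carboxylase that provides malonyl-CoA, had 74.3, 78.3 and 80.5 CPM in siPDCD4, against 59.8, 129 and 39.2 CPM in siCT. Their log2 fold changes of 0.07 ± 0.26 and 0.03 ± 0.44 do not resolve a difference of the size seen in other members. That of ACACA was 0.64 without siCT replicate 2 (adjusted p = 0.302 in edgeR), -0.28 without siCT replicate 3 and -0.04 without the length correction, and the direction thus turned with a single control library. The elongase ELOVL6 and the NADPH-producing malic enzyme ME1 had log2 fold changes of -0.20 ± 0.18 and -0.11 ± 0.11.

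**Figure D3:**
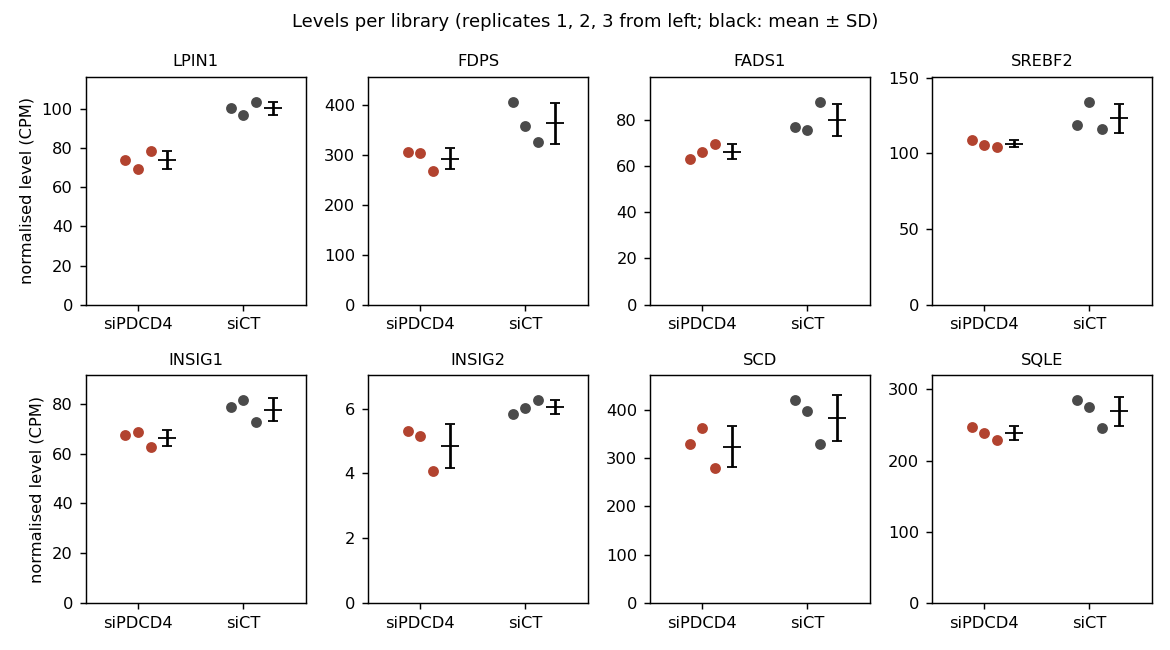
Normalised level (CPM, axes from 0) of 8 genes in each library, siPDCD4 on the left and siCT on the right of each panel, with mean and SD in black. For LPIN1, FDPS, FADS1, SREBF2, INSIG1 and INSIG2 all 3 siPDCD4 points lie below all 3 siCT points, while in SCD and SQLE the groups overlap.

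Seen by library, the lower levels were not even. Relative to the mean of siCT, the median mevalonate enzyme stood at -0.097, -0.064 and -0.305 (log2) in siPDCD4 replicates 1, 2 and 3, against 0.091, 0.037 and -0.157 in siCT replicates 1, 2 and 3. The median sterol enzyme stood at -0.096, -0.062 and -0.231 in siPDCD4, against 0.091, 0.021 and -0.128 in siCT. In both arms siCT replicate 3 thus lay below siPDCD4 replicates 1 and 2. For the fatty acid genes the medians were -0.151, -0.046 and -0.216 in siPDCD4, against 0.041, 0.046 and -0.096 in siCT. Of the 18 mevalonate and sterol enzymes, 14 had their lowest level in siPDCD4 replicate 3 and 11 their highest in siCT replicate 1. The summed TPM of the 18 was 1072 ± 83.2 in siPDCD4 and 1210 ± 128 in siCT, and that of the 10 fatty acid genes 360 ± 29.1 in siPDCD4 and 384 ± 40.7 in siCT (SD, n = 3 each). In both sums the groups overlapped.

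**Figure D4:**
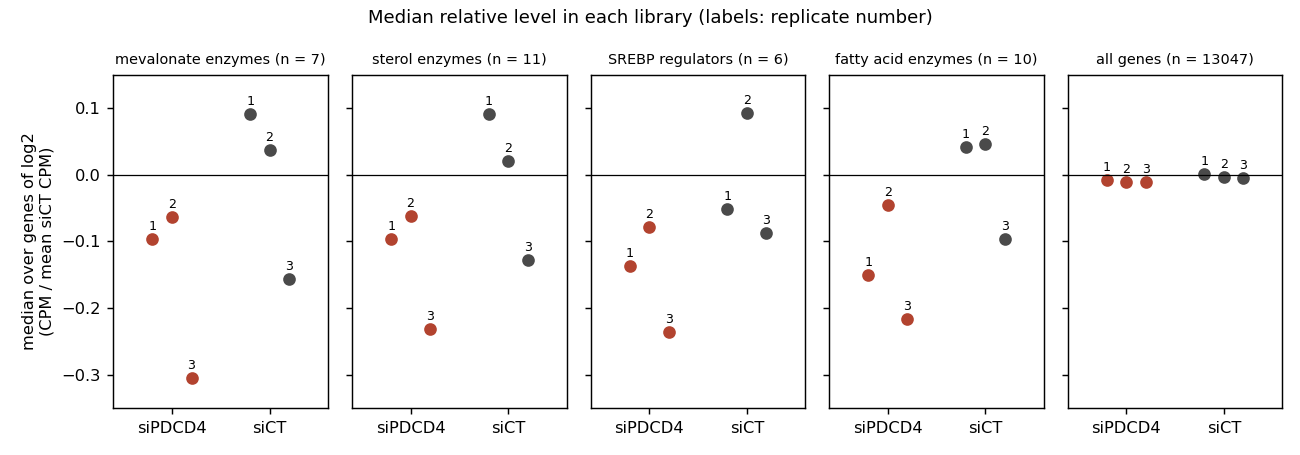
Median over the genes of each arm of the log2 ratio to the mean siCT level, for each library, with siPDCD4 left of siCT and the replicate number above each point. The medians of all genes lie between -0.011 and 0.001, while those of the 4 arms spread over libraries within each group, with siPDCD4 replicate 3 lowest in every arm.

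Libraries also differed in how levels ran with base composition. The transcripts of the 34 members had 35.4% to 65.3% GC. Each gene's log2 level was taken relative to its mean over all 6 libraries and correlated with GC content across members. The correlations were 0.261, 0.339 and -0.074 in siPDCD4 replicates 1, 2 and 3, against -0.451, -0.107 and 0.265 in siCT replicates 1, 2 and 3 (Pearson, across genes of 1 library, which are not independent replicates). Across all 13047 genes the values were 0.066, 0.229 and -0.129 in siPDCD4, against -0.288, 0.03 and 0.085 in siCT. With an offset for GC content in each library, the medians were -0.168 for mevalonate enzymes, -0.146 for sterol enzymes, -0.151 for regulators and -0.142 for fatty acid genes, close to those without it. Without siCT replicate 3 the medians were -0.218, -0.229, -0.175 and -0.189 in the same order, and 13 members had an unadjusted p under 0.05. Without siPDCD4 replicate 3 they were -0.078, -0.098, -0.109 and -0.108, with 3 members at that p. The part that either library had in the result was not tested further.

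**Figure D5:**
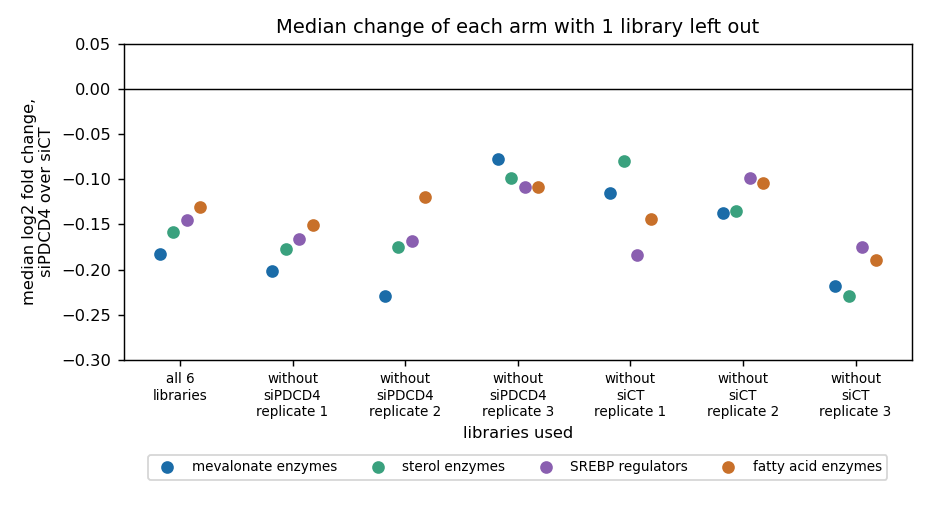
Median log2 fold change of siPDCD4 over siCT in each arm with all 6 libraries and with 1 library left out at a time. All medians lie below 0, between -0.229 and -0.078, and lie nearest to 0 for the mevalonate enzymes without siPDCD4 replicate 3.

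At the level of transcripts, 0 of the 47375 transcripts tested passed an FDR of 5% in edgeR (0%), and 1531 (3.23%) had an unadjusted p under 0.05. Of 156 transcripts of members, 9 had such a p, and 8 of the 9 were lower in siPDCD4. The share of all transcripts that were lower at that p was not counted, so this direction has no background beside it. In DESeq2 537 transcripts passed (1.13%), among them 4 of members. The main transcript of LPIN1, LPIN1-201, had 980, 732 and 875 counts in siPDCD4, against 1875, 1465 and 852 counts in siCT, before scaling to library depth. Scaled to depth, its log2 fold change was -0.59 ± 0.13 (adjusted p = 0.601 in edgeR). LPIN1-201 held 78.1 ± 2.88% of the counts of LPIN1 in siPDCD4 and 74.4 ± 7.57% in siCT (SD, n = 3 each). FADS1-201, which held 94.6 ± 0.354% and 95.0 ± 2.43% of FADS1 in siPDCD4 and siCT, had a log2 fold change of -0.29 ± 0.08, close to the -0.27 of the gene.

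In the other regulators the transcripts divided the difference unevenly. INSIG2-204, a transcript of INSIG2 with no defined coding sequence, had 0 counts in each siPDCD4 library, against 27.3, 36.7 and 23.8 counts in siCT replicates 1, 2 and 3. Against a floor of 3 counts in the shallowest siPDCD4 library it was at least 8.44-fold lower (adjusted p = 0.323 in edgeR). The coding transcript INSIG2-201 had 53.3, 63.8 and 89.2 counts in siPDCD4, against 77.1, 49.5 and 45.5 counts in siCT, and these unscaled counts overlapped. SREBF2-201 and INSIG1-201, the main transcripts of their genes, had log2 fold changes of -0.06 ± 0.09 and -0.09 ± 0.09, and in both the groups overlapped. The counts printed for transcripts are not scaled to depth, and library totals ran from 13410441 (siCT replicate 3) to 21828931 (siCT replicate 1). They therefore do not compare levels between libraries as they stand. These transcript counts also rest on the division of shared reads among transcripts and were not corrected for length.

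Around these genes, 4 further lists of the same pathways were counted, and none had a gene past an FDR of 5% in the edgeR fit used throughout. Of 11 other fits of all 6 libraries, RABGGTB passed in 2, ACSL1 in 3 and GPAM in 1, and none of the 3 passed with 1 library left out. Of 12 genes of the isoprenoid branch, which use farnesyl and geranylgeranyl groups, 8 were below 0 with a median of -0.061. Its smallest p belonged to RABGGTB, the beta subunit of the enzyme that prenylates Rab proteins, with 126, 125 and 130 CPM in siPDCD4, against 166, 150 and 168 CPM in siCT (log2 fold change -0.34 ± 0.08, adjusted p = 0.127). FNTB, the beta subunit of farnesyltransferase, had -0.26 ± 0.13. Of 11 genes that carry, cut or degrade the SREBP and INSIG proteins, 10 were below 0, with a median of only -0.047 and with SEC24A and RNF139 both at -0.10. Of 17 other genes of fatty acid synthesis and activation, 8 were below 0 and 9 above, with a median of 0.01. ACSL1, an acyl-CoA synthetase, had 96.1, 101 and 148 CPM in siPDCD4, against 165, 158 and 213 CPM in siCT (-0.64 ± 0.18, adjusted p = 0.266). SCD5, another stearoyl-CoA desaturase, had 50.3, 49.4 and 44.1 CPM in siPDCD4, against 39.7, 35.3 and 32.3 CPM in siCT, which is the opposite direction to SCD (0.42 ± 0.11, adjusted p = 0.208). Of 13 genes of glycerolipid synthesis, 8 were below 0 with a median of -0.085. GPAM, which starts the glycerolipid chain, and LPIN3, a paralogue of LPIN1, stood at -0.50 ± 0.22 (adjusted p = 0.567) and -0.34 ± 0.16 (adjusted p = 0.588).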

How the data were processed

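The authors quantified paired reads of 75 bases on GRCh38 transcripts with Salmon (version not given in the sources used here) and deposited 1 transcript table for each library. Its estimated counts share reads out among transcripts, as the authors ran Salmon, and the deposited TPM values come from the same run. Of 194142 transcripts, 181244 matched GENCODE release 44 by identifier. The other 12898 were not analysed here and held 5.47% to 6.21% of counts. Deposited transcript and effective lengths were used for the offset.

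Counts were summed to 34486 genes, rounded and tested in edgeR 4.0.16 (R 4.3.3; quasi-likelihood F test, robust, TMM, filterByExpr, offset for mean transcript length), with Benjamini-Hochberg adjustment over 13047 genes. The median biological coefficient of variation was 0.125. A value after ± is an SE for log2 fold changes and an SD for levels and shares. Transcripts were tested likewise without the length offset. Alternatives were other scalings and filters, DESeq2 1.42.0, limma-voom (limma 3.58.1), no length offset, a replicate block, each library left out, and, chosen after seeing the data, an offset for GC content. Fits were tested on simulated data, with planted changes larger than that of any member and with all transcript lengths set equal. That simulation does not bear on differences as small as those of the members or on the length offset. The genes named in full were PDCD4, in each arm the 4 members with the smallest p and the 2 with the highest TPM, both SREBF and INSIG pairs, and in other lists the 2 with the smallest p. Other members are named with their values only, and the per-library values of TM7SF2 and ACACA and of transcripts outside the 3 with the smallest p were chosen after values were seen. Members and lists were chosen with earlier results of these data known.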

Additional observations from a re-analysis of the deposited data

How the results depend on the processing

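The median log2 fold changes of the 4 arms stayed below 0 under every alternative run, between -0.229 and -0.078 for mevalonate, -0.229 and -0.080 for sterol, -0.184 and -0.098 for regulator and -0.189 and -0.104 for fatty acid genes with 1 library left out. The count of genes past the FDR was 56 and became 126 without the length offset, 108 without a filter, 191 in DESeq2, 130 with replicate block and GC offset, and 9 to 40 with 1 library left out. The count of members was 0 and became 1, always LPIN1, without the length offset, without a filter, in DESeq2, with the replicate block, with the GC offset and with both; it was 0 to 0 with 1 library left out. Transcripts past the FDR numbered 537 in DESeq2 and 0 to 0 with 1 library left out. SREBF1 turned to -0.05 with the GC offset and -0.04 with block and GC offset, and lay between -0.05 and 0.14 with 1 library left out; FASN turned to -0.01 with the GC offset and lay between -0.17 and 0.22. ACACA lay between -0.28 and 0.64 with 1 library left out and at -0.04 without the length offset, and PMVK, FDFT1, SC5D and SCAP, all close to 0, also crossed it in some fits. Fewer libraries and fewer or more genes tested enter these counts; otherwise the cause was not tested. Same-numbered libraries of the groups correlated at 0.0711, 0.117 and 0.182, and differently numbered ones at -0.193 to 0.102. Each siCT library correlated best with its same-numbered siPDCD4 library, while siPDCD4 replicate 1 correlated best with siCT replicate 2 (0.102). Whether replicate numbers mark a shared culture or day is not stated and was not tested. The replicate block gave 77 genes. Members at an unadjusted p under 0.05 numbered 5, against 11 with the block, 12 with block and GC offset, and 2 to 13 with 1 library left out. With SEs near 0.109, differences of about 10% in single genes are below what 3 libraries per group resolve here.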

Other observations

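Lists of genes that move, store or burn lipids had medians slightly above 0, and none had a gene past an FDR of 5% in edgeR. Of 14 tested genes of sterol transport and storage, 8 were above 0, with a median log2 fold change of 0.051. GRAMD1B, which carries cholesterol from the plasma membrane to the endoplasmic reticulum, had 6.54, 11.0 and 7.96 CPM in siPDCD4, against 4.78, 6.61 and 3.57 CPM in siCT, and the groups overlapped (0.76 ± 0.27, adjusted p = 0.402 in edgeR). SOAT1, which esterifies cholesterol for storage, had 86.4, 80.7 and 89.4 CPM in siPDCD4, against 73.0, 76.8 and 73.7 CPM in siCT, and the groups did not overlap (0.20 ± 0.08, adjusted p = 0.491). Of 17 genes of fatty acid oxidation, 12 were above 0 with a median of 0.036, and CPT2, which returns acyl groups to CoA inside mitochondria, had 42.9, 41.1 and 42.1 CPM in siPDCD4, against 38.0, 37.1 and 35.8 CPM in siCT (0.19 ± 0.09, adjusted p = 0.615). PPARD, a nuclear receptor that drives oxidation genes, stood at 0.33 ± 0.15 (adjusted p = 0.564). The difference between these lists and the synthesis genes was not tested.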
